A study of Mus musculus with 3 samples.

Results

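The 32 genes described here carry glucose breakdown and the transcriptional answer to low oxygen. They were taken from a list of symbols by function and not by a threshold on a measured value, although earlier results of these data were known when the list was drawn up. All 32 were present among the 33696 genes of the deposited feature table. The glycolysis list held 18 genes: glucose transporters, 13 enzymes between hexokinase and lactate dehydrogenase, the regulators Pfkfb3 and Pfkfb4, and the lactate exporter Slc16a3. A second list held 13 other hypoxia-induced genes, and Hif1a was kept apart. RNA was counted as unique molecular identifiers (UMIs, 1 per captured molecule) in 3 droplet libraries of mouse bone marrow, 1 each from wild-type, heterozygous Fabp4 knockout and homozygous Fabp4 knockout mice. Fabp4 encodes a fatty acid-binding protein. Each library pooled 2 mice, and no file used here assigns cells to mice. Strain, age, sex and the knockout construct were not given in the sources used here. The series title speaks of leukaemia stem cells, while the labels say only bone marrow, so whether these mice carried leukaemia is not stated. After cells with fewer than 500 UMIs, fewer than 200 genes or a mitochondrial share of 10% or more were left out, 5604 wild-type, 7957 heterozygous and 4318 homozygous cells remained. The mitochondrial limit removed 3774 of 9432 wild-type barcodes (40.0%), 2625 of 10718 heterozygous (24.5%) and 3723 of 8115 homozygous ones (45.9%). Levels are CPM, the UMIs of a gene per 1e+06 UMIs of the cells summed.

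Glycolysis splits glucose into pyruvate in the cytosol and yields ATP without oxygen. Cells import glucose through GLUT transporters, trap it with hexokinases, commit it at phosphofructokinase and, where pyruvate is not burned in mitochondria, reduce it to lactate for export. HIF1A is a transcription factor that prolyl hydroxylases mark for destruction while oxygen is present. In low oxygen it persists, pairs with ARNT and binds a short core, ACGTG or GCGTG, called the hypoxia response element, near many glycolytic and mitophagy genes. Neutrophils rely heavily on glycolysis, and bone marrow is a tissue of low oxygen tension.

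Promoter sequence was examined because HIF1A acts through this core. RefSeq promoter windows (build GRCm38.p6), taken as the 250 bases before each annotated start, were found for 29 of the 32 members. Slc2a3, Bnip3l and Ndrg1 had no entry. At least 1 core on either strand was found in 28 of the 29 genes (96.6%), against 41.5% of all 27025 genes in the table. Counted by window, 34 of 41 member windows (82.9%) and 38.6% of all 32851 windows held a core, and 51.2% against 16.7% held 2 or more. A CACGTG palindrome counts as 2 overlapping matches, 1 per strand. Median GC content was 62.8% in the member windows and 52.4% in all windows, and the part of base composition in the difference was not tested. Tpi1 was the member with a window and no core. A match is a stretch of letters and not a shown binding site. Of the windows below, 5 belong to genes whose levels the results turn on (Ldha, Pgam1, Pfkp, Slc16a3 and Egln3), and Pgk1 is a classical hypoxia-induced enzyme gene. Capitals mark the cores and their reverse complements. Bases inside GENCODE M21 exons were left out at the end nearest the start (6 for Pfkp and 14 for Slc16a3). The 14 bases left out for Slc16a3 held the second of its 2 cores, which the counts above include. The Ldha window lies at chr7:46845554-46845803 (plus strand), Pgk1 at chrX:106186850-106187099 (plus), Pgam1 at chr19:41911621-41911870 (plus), Pfkp at chr13:6648778-6649021 (minus), Slc16a3 at chr11:120948817-120949052 (plus) and Egln3 at chr12:54203875-54204124 (minus). Each is written 5′ to 3′ along its gene's strand.
Ldha: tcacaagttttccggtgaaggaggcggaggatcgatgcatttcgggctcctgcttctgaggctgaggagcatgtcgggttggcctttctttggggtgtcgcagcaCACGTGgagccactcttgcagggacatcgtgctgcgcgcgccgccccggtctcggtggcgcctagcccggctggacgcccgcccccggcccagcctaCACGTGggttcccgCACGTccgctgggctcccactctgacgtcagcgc
Pgk1: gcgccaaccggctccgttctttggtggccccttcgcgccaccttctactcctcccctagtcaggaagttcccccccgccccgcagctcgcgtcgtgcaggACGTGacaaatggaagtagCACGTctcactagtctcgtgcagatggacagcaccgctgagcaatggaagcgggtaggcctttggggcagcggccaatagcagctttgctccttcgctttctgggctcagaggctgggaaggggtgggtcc
Pgam1: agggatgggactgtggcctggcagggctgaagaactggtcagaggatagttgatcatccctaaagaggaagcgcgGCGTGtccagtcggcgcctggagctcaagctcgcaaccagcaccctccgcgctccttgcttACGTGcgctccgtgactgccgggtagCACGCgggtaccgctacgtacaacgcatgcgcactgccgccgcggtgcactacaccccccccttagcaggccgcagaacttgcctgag
Pfkp: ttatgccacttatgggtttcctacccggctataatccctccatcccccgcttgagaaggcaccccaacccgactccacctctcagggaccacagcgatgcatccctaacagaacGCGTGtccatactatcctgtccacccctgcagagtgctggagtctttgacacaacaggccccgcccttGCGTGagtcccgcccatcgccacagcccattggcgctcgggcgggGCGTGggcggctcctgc
Slc16a3: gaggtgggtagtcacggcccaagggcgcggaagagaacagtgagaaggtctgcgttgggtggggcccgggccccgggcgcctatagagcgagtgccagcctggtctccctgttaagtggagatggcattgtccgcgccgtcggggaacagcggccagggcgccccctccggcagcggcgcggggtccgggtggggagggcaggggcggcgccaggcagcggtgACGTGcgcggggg
Egln3: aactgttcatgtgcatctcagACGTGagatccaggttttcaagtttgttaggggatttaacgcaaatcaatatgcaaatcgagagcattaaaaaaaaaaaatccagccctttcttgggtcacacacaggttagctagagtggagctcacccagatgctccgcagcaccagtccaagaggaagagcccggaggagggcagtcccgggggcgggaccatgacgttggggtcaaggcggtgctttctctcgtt
The Ldha window shown held 5 matches, 4 of them from 2 palindromes, with the nearest starting 34 bases before the start. Ldha had another window, at chr7:46846832-46847081 and not shown, with 1 core of the GCGTG form (reverse complement), 59 bases before its start. The Pfkp cores were all of the GCGTG form. The Egln3 window held its 1 core 229 bases before the start.

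The libraries differed in more than genotype. Kept UMIs numbered 67141826 in wild type, 72880881 in the heterozygote and 46093025 in the homozygote, with median depths of 10058, 7658 and 9036 UMIs per cell. Fabp4 itself gave 50, 38 and 5 UMIs in the same order, too few to grade the labels beyond a lower level in the homozygous library. Cells were assigned to 6 classes, 5 of them by the highest z-scored marker list and the dendritic class by at least 4 detected markers. Each class is called by its name with the ending -like. Neutrophil-like cells were most frequent in the heterozygote. The immature class made up 7.87%, 21.0% and 6.16% of kept cells and the mature class 2.89%, 17.6% and 3.75% (wild type, heterozygote, homozygote, the order used throughout). Stem and progenitor-like cells made up 21.6%, 6.46% and 5.12%, and monocyte-like cells 20.6%, 12.1% and 35.4%. Granulocyte-monocyte progenitor-like cells were 16.6%, 7.53% and 20.5%, dendritic cell-like cells 1.59%, 5.34% and 1.67%, and 26.6% to 29.6% of cells fell between classes. Cells with Xist RNA and no Y-linked RNA were 91.9%, 14.4% and 84.2% of kept cells, so the heterozygous library also differed in the sex of its cells. Dividing cells were 28.0%, 20.5% and 43.0%. Between 21 and 26 cell barcodes were shared by each pair of libraries. With 1 library per genotype no test across samples exists: intervals below are 95% and cover counting error only, and genotype cannot be told apart from library, sex or batch.

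In the homozygous library most members were slightly lower than in wild type. Of the 18 glycolysis genes, 12 were lower and 6 higher, with a median log2 ratio of -0.13, while the median over all 17034 genes tested was 0.06. The hypoxia-induced list had 10 of its 12 measurable genes lower, with a median of -0.16. The shifts were small: 2 members, Ndrg1 and Egln3, were past 1.5-fold, both lower, against 21.1% of all genes tested (9.62% lower). Summed over the list, glycolysis RNA stood at 4143, 4175 and 3752 CPM and hypoxia-induced RNA at 769, 748 and 681 CPM. The homozygous library was thus the lowest for both sums. In sums over all kept cells a different mix of cell types and a different level per cell cannot be told apart, so the same ratios were taken within classes.

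Within classes the homozygous glycolysis medians were below 0 in all 6. The log2 medians were -0.31 in monocyte-like, -0.27 in dendritic cell-like, -0.23 in stem and progenitor-like, -0.18 in immature neutrophil-like, -0.12 in mature neutrophil-like and -0.09 in granulocyte-monocyte progenitor-like cells. The medians over all genes ran from -0.10 to 0.10 in those classes, and in mature neutrophil-like cells the list (-0.12) and all genes (-0.10) nearly coincided. Of 26 members with at least 20 UMIs in each class, 10 were lower in the homozygote in all 6 classes, against 9.04% of the 6181 genes so measurable. They were Slc2a1, Pfkl, Pfkp, Aldoa, Tpi1, Pgam1, Pkm, Ldha, P4ha1 and Hif1a. No member was higher in all 6, against 8.74% of genes. The hypoxia-induced medians were also at or below 0 in each class, the lowest at -0.34 in monocyte-like cells. Stem and progenitor-like cells of the homozygote had a median depth of 4775 UMIs against 9219 in wild type, and the part of this gap in their ratios was not tested.

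**Figure D1:**
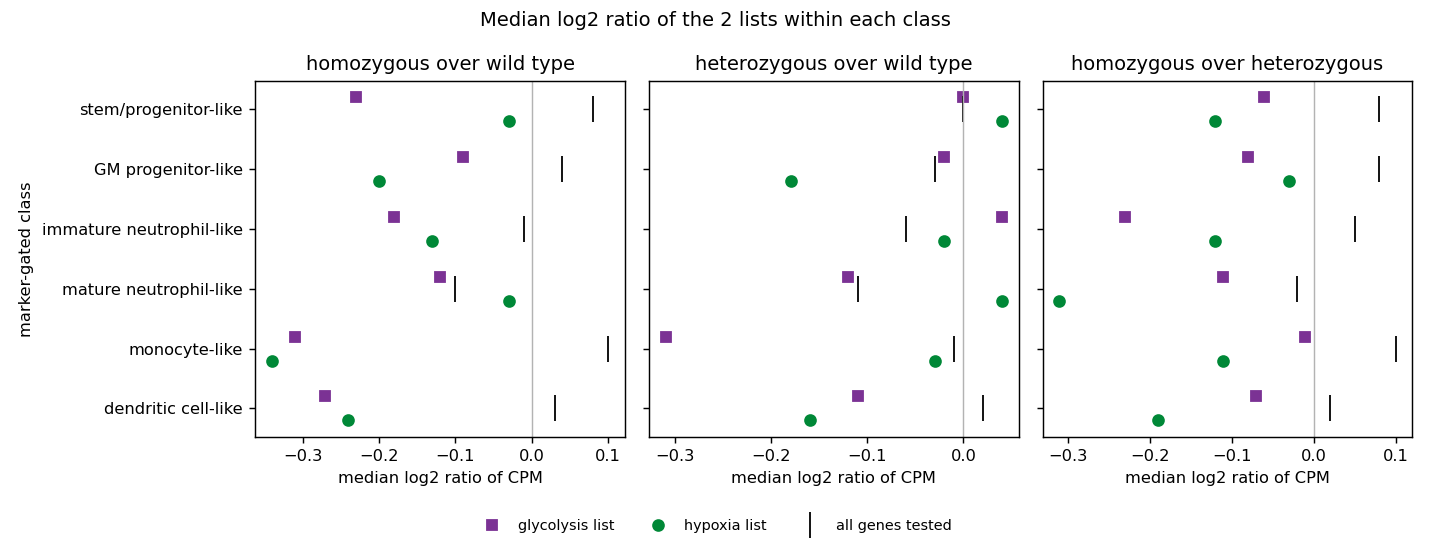
Median log2 ratio of CPM (horizontal) in each marker-gated class (vertical) for the glycolysis list (squares), the hypoxia-induced list (circles) and all genes tested (ticks), with 1 panel per pair of libraries. In the homozygous over wild-type panel the squares sit left of 0 in all 6 classes, from -0.31 to -0.09.

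The heterozygous library gave a mixed picture over all kept cells. Its glycolysis median was 0.08 above wild type on the log2 scale and its hypoxia-induced median -0.20, with -0.14 for all genes. Slc2a3, Slc16a3, Pfkfb4 and Ddit4 were past 1.5-fold higher and Pfkp and Pdk1 past 1.5-fold lower, against 29.2% of all genes tested. Adm also passed the fold in this pair with 22 UMIs in all, and its interval spanned 0. Within classes the glycolysis median lay between -0.31 (monocyte-like) and 0.04 (immature neutrophil-like). Weighting the classes equally turned the glycolysis median to -0.13. The homozygote set directly against the heterozygote had medians of -0.06 (glycolysis) and -0.10 (hypoxia-induced) with 0.22 for all genes. In that pair Slc2a1, Slc2a3, Slc16a3, Ddit4 and Egln3 were past 1.5-fold, all lower in the homozygote, against 33.8% of all genes. With equal class weights the log2 ratios of Slc2a3, Slc16a3 and Egln3 in that pair went from -2.30, -1.09 and -0.78 to -0.39, -0.35 and -0.24. Within classes 9 of 31 members were lower in the heterozygote than in wild type in all 6 classes and 4 higher, against 12.2% and 9.27% of the genes so measurable. The lower ones were Pfkl, Pfkp, Aldoa, Tpi1, Pgam1, Ldha, Ndrg1, Pdk1 and Hif1a, and the higher ones Slc2a3, Hk3, Slc16a3 and Ddit4. The homozygote was below the heterozygote in all 6 classes for 4 of 31 members and above it for 1, against 8.75% and 11.7%. The 3 pairs share their libraries and are not independent.

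**Figure D2:**
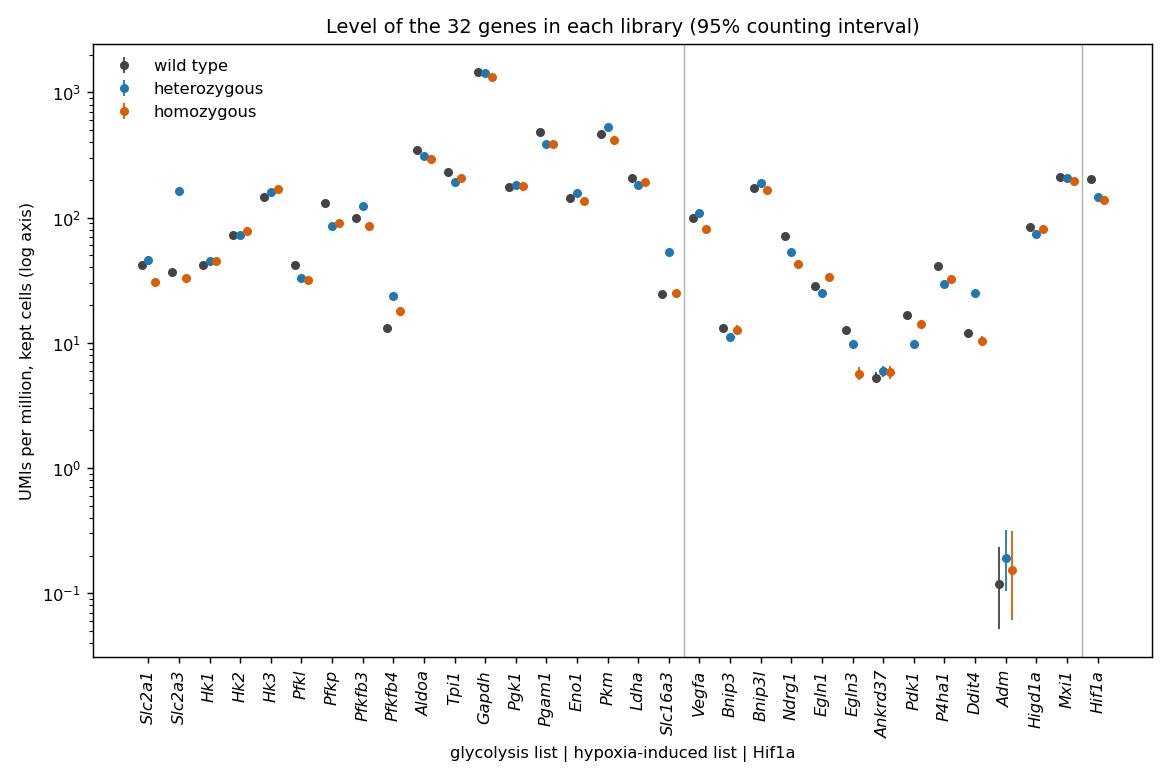
Level of each of the 32 genes in kept cells (CPM, log axis), 1 point per library with its 95% counting interval; vertical lines separate the glycolysis list, the hypoxia-induced list and Hif1a. Slc2a3 stands apart at 163 CPM in the heterozygous library against 36.7 and 33.2, and Adm lies below 1 CPM in all 3.

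Of the 2 glucose transporters Slc2a3 differed widely between libraries. It encodes GLUT3, a high-affinity transporter, and stood at 36.7 CPM in wild type, 163 in the heterozygote and 33.2 in the homozygote. The heterozygous level was 4.46-fold above wild type (log2 2.16, interval 2.09 to 2.22), and the other libraries lay close together. Slc2a3 also had the widest span over classes of any member. Mature neutrophil-like cells held 349, 413 and 378 CPM and immature neutrophil-like cells 197, 246 and 178, whereas monocyte-like cells held 7.37, 17.0 and 4.67. Within the neutrophil-like classes the heterozygous excess was therefore small, with log2 ratios to wild type of 0.24 (0.08 to 0.41) and 0.33 (0.22 to 0.44). With the 6 classes weighted equally the heterozygous ratio was 0.44.

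Outside the neutrophil-like classes the heterozygous Slc2a3 ratio was larger. The neutrophil markers Retnlg, Mmp9 and Cxcr2 and the immature marker sum were above wild type there too, while the mature marker sum was not in every class. The log2 ratios to wild type were 1.63 in stem and progenitor-like, 1.71 in granulocyte-monocyte progenitor-like, 1.21 in monocyte-like and 1.18 in dendritic cell-like cells. In monocyte-like cells Retnlg, a marker of mature neutrophils, stood at 2.03, 33.0 and 2.53 CPM. Mmp9 stood there at 3.99, 18.3 and 3.49 CPM and Cxcr2 at 1.28, 2.02 and 0.860 CPM. The 9 immature neutrophil markers summed to 840, 2013 and 451 CPM in the same cells, with none at 0. In dendritic cell-like cells the 9 markers summed to 1530, 6209 and 435 CPM. The 10 mature neutrophil markers, of whose sum Retnlg, Mmp9 and Cxcr2 were a small part, ran otherwise in monocyte-like cells. They summed there to 2027, 1974 and 1147 CPM, highest in wild type. They were highest in the heterozygote in granulocyte-monocyte progenitor-like (2004, 3157 and 1599 CPM) and dendritic cell-like cells (1532, 1766 and 743). In the former class Retnlg stood at 3.30, 43.1 and 1.88 CPM and the 9 immature markers summed to 4357, 11797 and 5684. Stem and progenitor-like cells also differed. Slc2a3 stood there at 18.7, 57.9 and 44.6 CPM, above wild type in the homozygote too (log2 1.25, 0.84 to 1.65). In those cells Retnlg was 2.94, 36.2 and 0.676 CPM, the mature markers summed to 2692, 2815 and 1751 CPM and the immature ones to 1274, 4247 and 1594 CPM. The part of neutrophil RNA in the Slc2a3 ratios was not tested. The share of the Slc2a1 plus Slc2a3 molecules held by Slc2a3 ran from 82.1% to 90.1% in the neutrophil-like classes of all 3 libraries. In monocyte-like cells it was 13.5%, 31.1% and 13.2%.

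Slc2a1, the basal transporter GLUT1, was steadier, at 41.6, 45.9 and 30.5 CPM. Homozygous cells were lower than wild type by a log2 ratio of -0.45 (-0.54 to -0.35), and their ratio was below 0 in all 6 classes, from -0.62 in monocyte-like to -0.05 in dendritic cell-like cells. The highest class was mature neutrophil-like in each library, at 75.9, 76.8 and 51.3 CPM.

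Hexokinases phosphorylate glucose on entry. Over all kept cells none of the 3 was lower in the homozygote than in wild type, but within classes they differed from each other. Hk3, the isoform typical of myeloid cells, stood at 145, 159 and 170 CPM, a homozygous log2 ratio of 0.23 (0.18 to 0.27). It was higher than wild type in 5 of 6 classes in the homozygote, with the widest gap in monocyte-like cells (80.3, 93.3 and 123 CPM, log2 0.62, 0.51 to 0.72). Hk1 stood at 42.0, 45.2 and 45.1 CPM and Hk2 at 72.0, 72.7 and 77.7 CPM over all cells. Within classes Hk2 was lower in the homozygote than in wild type in 4 of 6, with log2 ratios from -0.34 to 0.54. Hk1 was higher in 4 of 6, up to 0.84 (0.52 to 1.15) in stem and progenitor-like cells, where it stood at 38.9, 51.2 and 69.6 CPM. The mix of hexokinases differed between classes in all 3 libraries. Such shares are given for how they change between classes and libraries, since 3' tags do not compare the levels of different genes. Hk3 held 58.6%, 60.5% and 65.4% of hexokinase molecules in granulocyte-monocyte progenitor-like cells and 40.1%, 39.4% and 48.8% in monocyte-like cells. Hk2, the inducible isoform, held 23.5%, 20.1% and 17.9% of them in the progenitor-like class and 44.9%, 47.7% and 38.9% in monocyte-like cells. In dendritic cell-like cells Hk3 was at its lowest in each library (61.6, 63.1 and 65.5 CPM).

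Phosphofructokinase carries the committing step, and its platelet-type gene Pfkp showed the most regular order of libraries. Over all kept cells Pfkp stood at 130, 86.4 and 90.9 CPM, with log2 ratios to wild type of -0.59 (-0.64 to -0.55) in the heterozygote and -0.52 (-0.57 to -0.47) in the homozygote. Within classes it ran wild type, then heterozygote, then homozygote in all 6, an order found in 0.310% of the 9687 genes measurable in each class and in no other member. Monocyte-like cells held 244, 187 and 131 CPM and dendritic cell-like cells 343, 234 and 214. Stem and progenitor-like cells held 127, 86.2 and 84.5 CPM. The lowest class was immature neutrophil-like in each library, at 50.1, 47.2 and 37.6 CPM. Neighbouring libraries were not always apart: in stem and progenitor-like cells the heterozygous and homozygous intervals overlapped. With classes weighted equally the ratios to wild type were -0.69 in the homozygote and -0.45 in the heterozygote. Among Xist-only cells the heterozygous ratio was -0.13, the closest to 0 of the 15 alternatives.

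By cell, at least 1 Pfkp molecule was found in 78.9% (76.4 to 81.2, exact binomial) of wild-type, 65.4% (62.3 to 68.4) of heterozygous and 64.5% (62.0 to 66.9) of homozygous monocyte-like cells. After thinning each cell to 1000 UMIs the shares were 21.9%, 17.1% and 11.5%, in the same order as the levels. Pfkp held 82.4%, 80.3% and 79.4% of the phosphofructokinase molecules in these cells and 56.0%, 63.3% and 59.0% in immature neutrophil-like cells. Pfkl, the liver-type gene, stood at 41.7, 32.8 and 32 CPM over all cells. Its homozygous log2 ratio was -0.38 (-0.47 to -0.29), and it too was below wild type in all 6 classes of either knockout library.

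**Figure D3:**
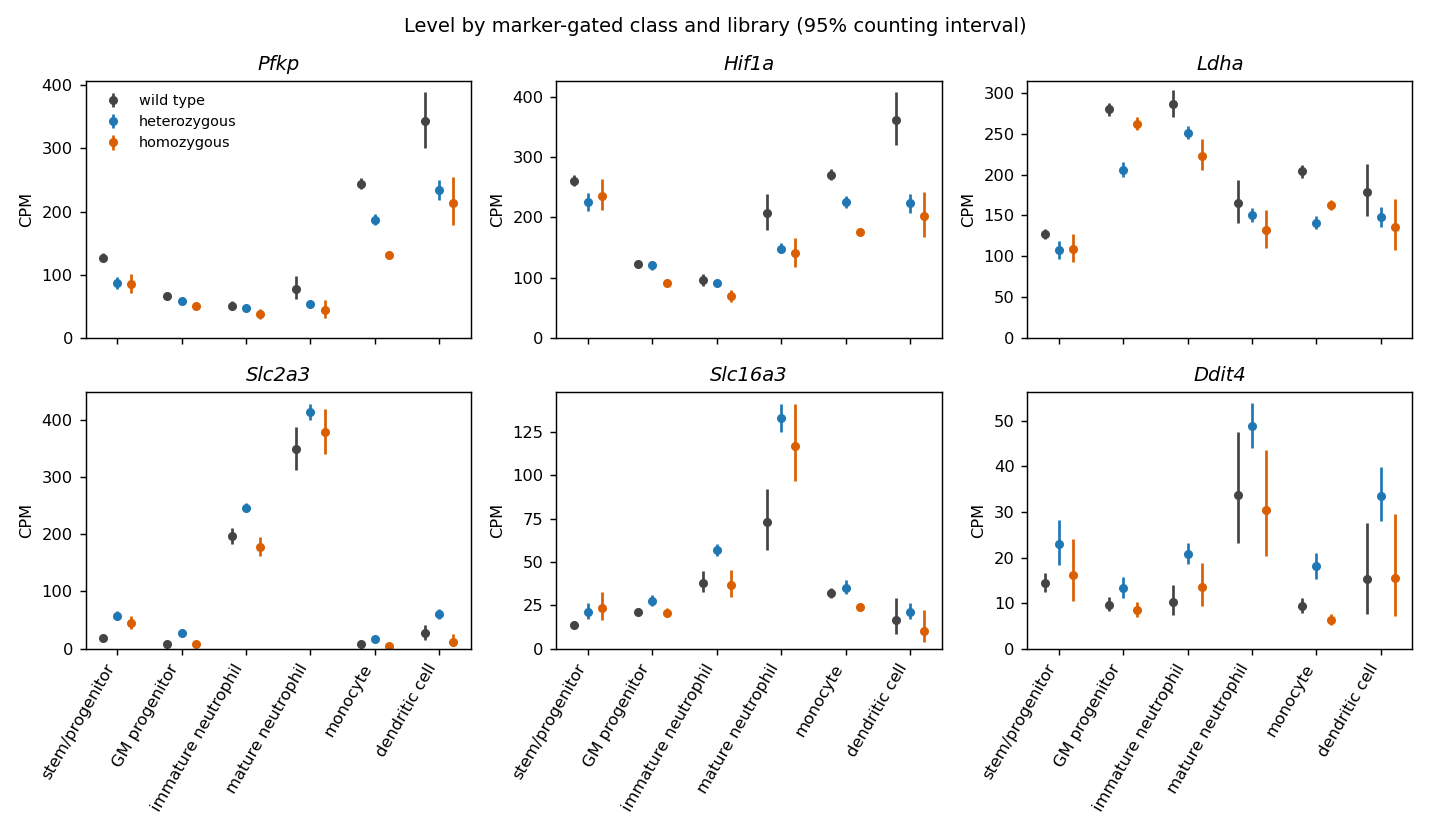
Level in CPM (vertical, from 0) of 6 genes in each marker-gated class (horizontal), 1 point per library with its 95% counting interval. Pfkp, Hif1a and Ldha were highest in wild type in all 6 classes, while Slc2a3, Slc16a3 and Ddit4 peaked in mature neutrophil-like cells and were above wild type in each class of the heterozygous library.

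Pfkfb3 and Pfkfb4 make and remove fructose 2,6-bisphosphate, which activates phosphofructokinase. Pfkfb3 stood at 99.5, 123 and 86.2 CPM and was lower in the homozygote than in the heterozygote in all 6 classes. Pfkfb4 stood at 13.2, 23.6 and 18 CPM, higher in the heterozygote by log2 0.84 (0.72 to 0.96). With equal class weights that ratio was 0.19, and among Xist-only cells with equal class weights it was -0.13.

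Of the 7 lower glycolytic enzymes from aldolase to pyruvate kinase, 4 were highest in wild type and 3 (Pgk1, Eno1 and Pkm) in the heterozygote. Pgam1, phosphoglycerate mutase, had the largest gap among them at 479, 385 and 386 CPM, with log2 ratios of -0.32 (heterozygote) and -0.31 (homozygote). Aldoa, aldolase A, stood at 344, 313 and 295 CPM and Tpi1, triose phosphate isomerase, at 232, 194 and 209. Gapdh, often used as a reference gene, stood at 1450, 1432 and 1328 CPM. Pgk1, the first ATP-yielding enzyme, was level at 175, 182 and 179 CPM. Eno1, enolase, stood at 144, 156 and 136 CPM and Pkm, pyruvate kinase, at 463, 525 and 415. Pgam1, Aldoa and Tpi1 were above both knockout libraries in all 6 classes, as were Pfkl, Pfkp, Ldha, Pdk1 and Hif1a. Here a gene counted as measurable with 20 UMIs in each class over the 3 libraries together. These 8 of 31 measurable members compare with 3.0% of all genes so measurable. Pdk1 rests on few molecules in mature neutrophil-like cells (6, 34 and 3 UMIs), too few for a ratio of homozygote to wild type there. All 8 comparisons rest on the same wild-type library. In monocyte-like cells most enzymes were below wild type: Pkm held 555, 440 and 431 CPM there, Pgam1 440, 328 and 340, and Eno1 174, 119 and 123. In that class 10 of the 13 enzymes were below wild type in each knockout library. Past 1.5-fold in the homozygous monocyte-like cells were Slc2a1, Slc2a3, Pfkl and Pfkp (lower) and Hk3 (higher), 5 of 18 glycolysis genes against 21.6% of all genes.

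At the lactate end Ldha and Slc16a3 parted. Ldha, the lactate dehydrogenase A subunit, stood at 209, 182 and 194 CPM and was highest in wild type in all 6 classes. The gap was widest in the heterozygous monocyte-like cells (204, 141 and 163 CPM, heterozygous log2 -0.54, -0.63 to -0.44). Slc16a3, the lactate exporter MCT4, stood at 24.7, 53.3 and 25.1 CPM over all cells, 2.16-fold higher in the heterozygote (log2 1.11, 1.03 to 1.20). Mature neutrophil-like cells held the most, 72.8, 133 and 117 CPM, followed by immature neutrophil-like cells at 38.1, 56.8 and 36.8. In mature neutrophil-like cells both knockout libraries were above wild type, by log2 0.87 (0.52 to 1.24) and 0.69 (0.25 to 1.14). The heterozygous ratio was 0.60 with equal class weights. The immature neutrophil markers summed to 6886, 24390 and 7084 CPM over all kept cells, and their part in the Slc16a3 and Ddit4 ratios was not tested.

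Hif1a itself was highest in wild type. It stood at 202, 147 and 139 CPM, with log2 ratios of -0.46 (-0.49 to -0.42) in the heterozygote and -0.54 (-0.58 to -0.49) in the homozygote. Monocyte-like cells held 271, 225 and 176 CPM, dendritic cell-like cells 362, 223 and 202, and mature neutrophil-like cells 207, 148 and 140. The homozygous ratio ran from -0.84 in dendritic cell-like to -0.14 in stem and progenitor-like cells, where its interval reached 0.02. Immature neutrophil-like cells were the lowest class in each library, at 95.7, 90.2 and 68.6 CPM. HIF1A activity is set largely by protein stability, which RNA counts do not measure.

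Of the HIF hydroxylases, Egln3, itself a HIF target, was lower in the homozygote. It stood at 12.6, 9.70 and 5.66 CPM, a homozygous log2 ratio of -1.16 (-1.36 to -0.95). Stem and progenitor-like cells were its highest class in each library and did not share the gap, at 17.2, 21.2 and 19.6 CPM. Mature neutrophil-like cells showed no gap either, at 11.3, 8.56 and 11.5 CPM, on 11, 68 and 11 UMIs. Granulocyte-monocyte progenitor-like cells held 16.9, 15.4 and 7.50 CPM (homozygous log2 -1.17, -1.52 to -0.84) and monocyte-like cells 6.09, 7.40 and 2.53 (-1.27, -1.82 to -0.73). With equal class weights the homozygous ratio was -0.34. Egln1, the main oxygen sensor, went the other way, at 28.5, 24.8 and 33.8 CPM, a homozygous log2 ratio of 0.25 (0.15 to 0.34). Egln3 accordingly held 40.4%, 36.0% and 21.6% of the Egln1 plus Egln3 molecules in granulocyte-monocyte progenitor-like cells and 15.2%, 17.0% and 5.55% in monocyte-like cells.

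**Figure D4:**
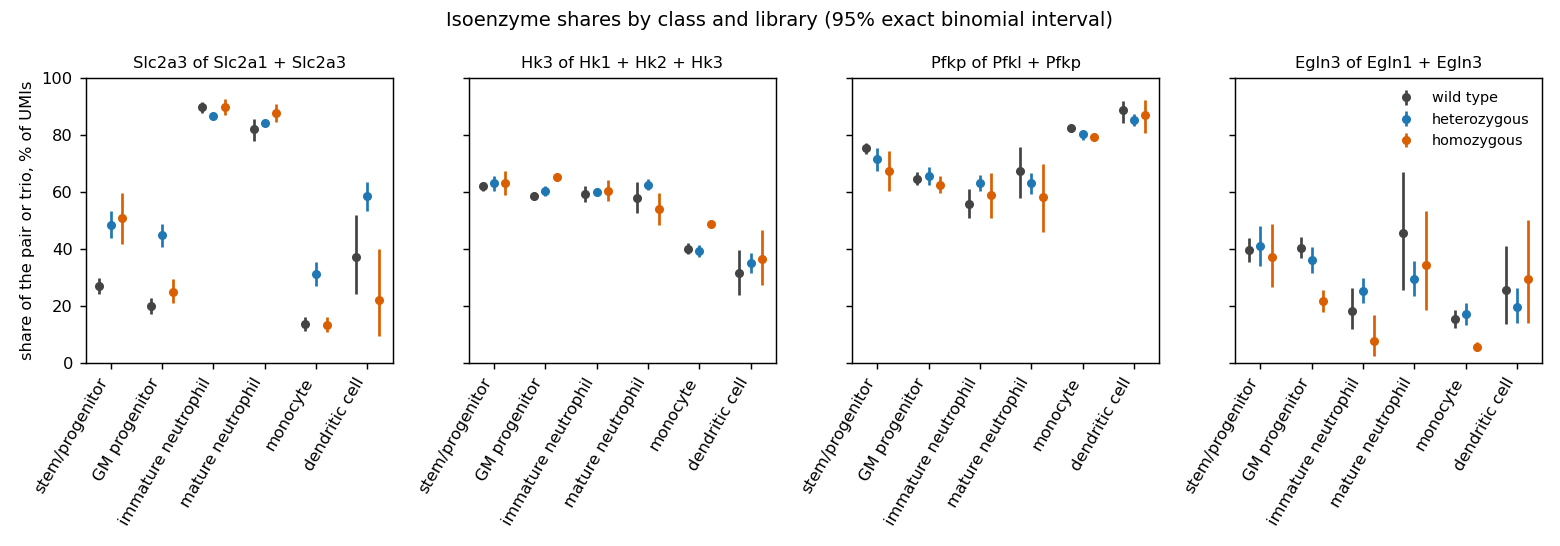
Share of the UMIs of a gene pair or trio held by 1 member (percent, vertical) in each marker-gated class (horizontal), 1 point per library with its exact 95% binomial interval. Slc2a3 held over 80% of its pair in neutrophil-like cells of every library, and Egln3 held 5.55% of its pair in homozygous monocyte-like cells.

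Among the remaining hypoxia-induced genes Ndrg1 had the widest homozygous gap. Ndrg1, a stress-induced differentiation gene, stood at 70.9, 53.1 and 42.4 CPM, a homozygous log2 ratio of -0.74 (-0.82 to -0.67). The order wild type, heterozygote, homozygote held in 5 of 6 classes, for example 43.7, 25.1 and 19.5 CPM in granulocyte-monocyte progenitor-like and 99.6, 86.7 and 58.8 in monocyte-like cells. Dendritic cell-like cells were the exception, at 64.4, 60.7 and 74.2 CPM. P4ha1, a collagen prolyl hydroxylase subunit, stood at 41.0, 29.3 and 32.2 CPM and was below wild type in all 6 homozygous classes. Pdk1 encodes a kinase that shuts off pyruvate dehydrogenase. It stood at 16.6, 9.87 and 14.1 CPM, with a heterozygous log2 ratio of -0.75 (-0.89 to -0.62), or -0.43 with equal class weights. It was at its lowest in mature neutrophil-like cells of each library, at 6.15, 4.28 and 3.14 CPM.

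Ddit4, an inhibitor of mTORC1 signalling, was highest in the heterozygous library. It stood at 12, 25.2 and 10.3 CPM, with a heterozygous log2 ratio of 1.07 (0.95 to 1.19), and was above both other libraries in all 6 classes. Only Slc2a3 among the other measurable members shared that order, found in 2.87% of genes. Ddit4 was highest in mature neutrophil-like cells (33.8, 48.8 and 30.4 CPM). In immature neutrophil-like cells it held 10.3, 20.7 and 13.5 CPM. With equal class weights the heterozygous ratio was 0.76. Its homozygous to heterozygous ratio of -1.29 was -0.37 when each cell counted equally.

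The other hypoxia-induced genes lay within 1.5-fold between libraries over all kept cells, apart from the sparse Adm. The mitophagy receptors Bnip3 (13.2, 11.1 and 12.7 CPM) and Bnip3l (173, 188 and 166 CPM) lay close in the 3 libraries. Vegfa, the angiogenic growth factor, stood at 100, 108 and 81.6 CPM. It was highest in stem and progenitor-like cells of each library (135, 148 and 136 CPM) and lowest in monocyte-like cells (45.1, 32.4 and 32 CPM). In dendritic cell-like cells Vegfa stood at 86.8, 64.7 and 34.5 CPM, a homozygous log2 ratio of -1.33 (-2.14 to -0.58) on 82 UMIs in the pair. Mxi1, a MYC antagonist, stood at 210, 209 and 195 CPM, and Higd1a, a mitochondrial respiratory factor, at 84.9, 73.6 and 81.5. Ankrd37 was sparse at 5.27, 5.90 and 5.84 CPM, with dendritic cell-like cells highest in each library at 18.2, 16.4 and 20.7. Adm, the peptide adrenomedullin, gave 8, 14 and 7 UMIs in all and is not read further.

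Several members kept their leading class in every library. The same class was highest in all 3 libraries for 14 of 31 members measurable in each class, close to the 50.1% of all genes so measurable. Mature neutrophil-like cells were that class for 7 of them, Slc2a1, Slc2a3, Aldoa, Pkm, Slc16a3, Bnip3l and Ddit4. Granulocyte-monocyte progenitor-like cells led for Tpi1 and Pgam1, immature neutrophil-like cells for Pgk1, stem and progenitor-like cells for Vegfa and Egln3, and dendritic cell-like cells for Pfkp and Ankrd37. The smallest log2 span over classes in any library was 4.60 for Slc2a3, 2.42 for Slc16a3, 2.31 for Pfkp, 2.28 for Ankrd37, 1.89 for Pdk1, 1.86 for Ddit4, 1.68 for Egln3 and 1.60 for Hk3. At the other end Higd1a spanned 0.27 and Bnip3 0.44.

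**Figure D5:**
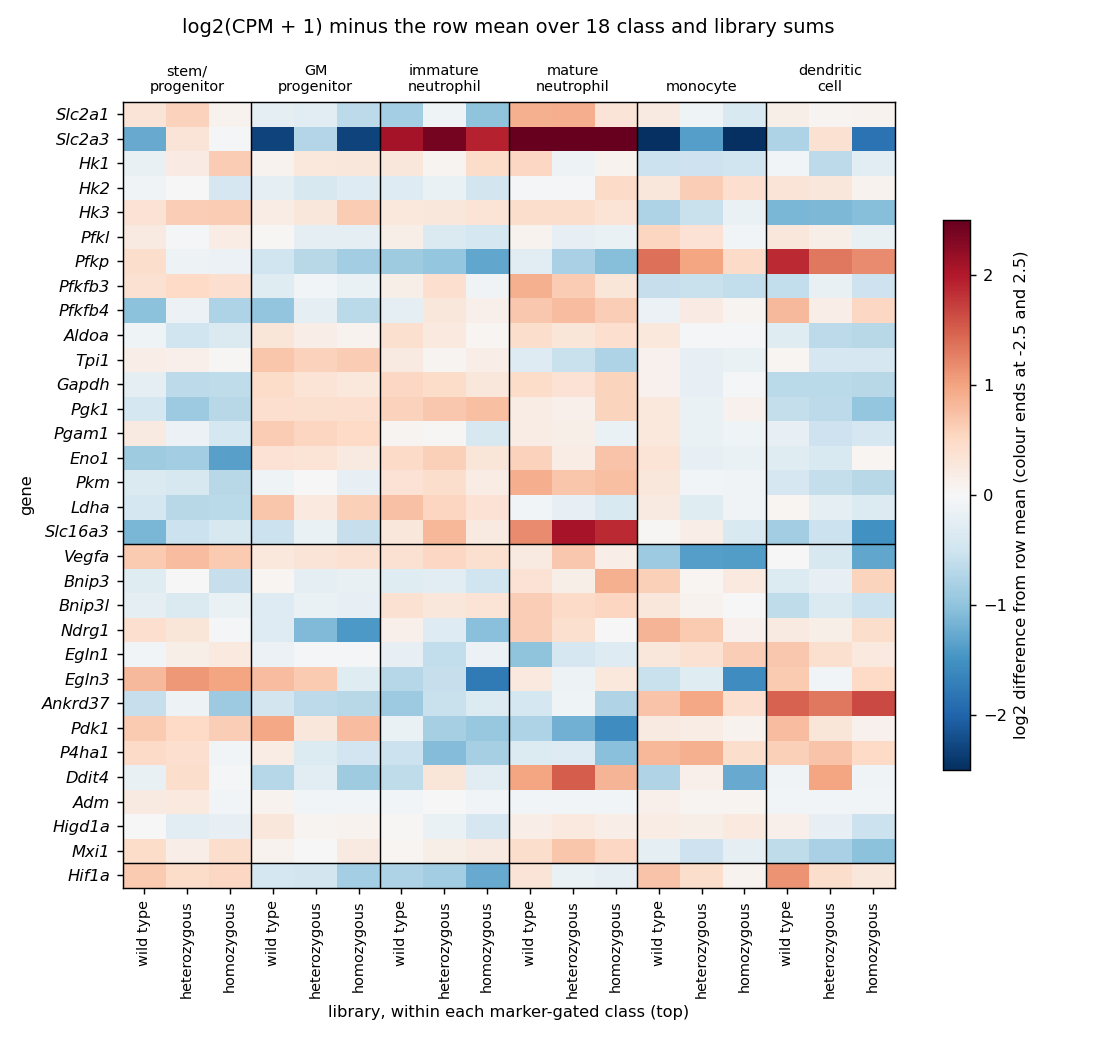
Each row is a gene and each column a class and library; colour is log2(CPM + 1) minus the row mean over the 18 sums, with the scale ending at -2.5 and 2.5. Slc2a3 and Slc16a3 are red in mature neutrophil-like cells, Pfkp and Ankrd37 in dendritic cell-like cells, in each of the 3 libraries.

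The median ratios of glycolytic enzymes and hypoxia-induced genes had opposite signs between some classes and the same sign between others. Between stem and progenitor-like and granulocyte-monocyte progenitor-like cells the median enzyme was lower in the former, by log2 -0.40, -0.45 and -0.48, while the hypoxia-induced median was higher, by 0.09, 0.35 and 0.25. The median over all genes for this pair was 0.07, 0.14 and 0.15. In monocyte-like against granulocyte-monocyte progenitor-like cells the enzyme medians were -0.16, -0.55 and -0.32 and the hypoxia-induced medians 0.20, 0.27 and 0.19, with -0.15, -0.11 and -0.08 for all genes. The wild-type enzyme median was thus close to that of all genes. Of 12 hypoxia-induced genes 6, 8 and 7 were higher in the monocyte-like cells. Their summed RNA in the homozygote was lower in those cells, at 646 against 681 CPM. From immature to mature neutrophil-like cells both medians were above that of all genes: the hypoxia-induced median was 0.23, 0.48 and 0.30 and the enzyme median 0.11, 0.05 and 0.23, with -0.05, -0.16 and -0.20 for all genes. RNA summed over the glycolysis list, transporters included, was highest in mature neutrophil-like cells of each library, at 5288, 4955 and 5167 CPM. It was 4602, 4368 and 4249 CPM in granulocyte-monocyte progenitor-like and 3340, 2927 and 2776 CPM in stem and progenitor-like cells. Dendritic cell-like cells held the least, 3054, 2729 and 2611 CPM. The 13 enzymes alone summed to 4570, 4139 and 4464 CPM in mature and 4492, 4352 and 3868 in immature neutrophil-like cells. In the heterozygote the enzyme sum was thus highest in the immature class.

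As CPM, most hypoxia-induced genes were lower in dividing cells than in other cells of their class. Dividing cells also held more UMIs. Their median depths in monocyte-like cells were 18561 against 9646, 14700 against 8010 and 17642 against 9506 UMIs. A lower CPM is thus a smaller share of the RNA and need not mean fewer molecules per cell. The hypoxia-induced median of dividing over non-dividing cells was below 0 in each of the 4 classes with enough dividing cells and in all 3 libraries. In granulocyte-monocyte progenitor-like cells it was -0.15, -0.28 and -0.38 and in monocyte-like cells -0.38, -0.26 and -0.33, where all genes had medians from -0.03 to 0.10. Ndrg1 had such a lower share in monocyte-like cells, at 63.4 against 112 CPM in wild type. It stood at 56.1 against 96.1 in the heterozygote and 35.5 against 79.3 in the homozygote. Hif1a was lower in the dividing monocyte-like cells too, by log2 -0.81, -0.66 and -0.64. Higd1a was an exception, higher in dividing monocyte-like cells by 0.35, 0.25 and 0.39.

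Glycolysis genes depended on class in this comparison. In granulocyte-monocyte progenitor-like cells dividing and other cells hardly differed, with medians of 0.05, -0.01 and 0.07. In immature neutrophil-like cells the dividing cells were lower, with medians of -0.31, -0.40 and -0.55 against 0.03, 0.15 and 0.17 for all genes. Slc2a3 was 90.1 against 265 CPM there in wild type, 112 against 330 in the heterozygote and 114 against 267 in the homozygote. Tpi1 ran the other way, at 253 against 191, 241 against 166 and 249 against 150 CPM. The part of maturation in these ratios was not tested. Among non-dividing cells alone the homozygous to wild-type medians kept their sign.

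Inside the heterozygous library cells with only Y-linked RNA could be set against cells with only Xist RNA, 4507 against 1148 cells. The glycolysis median was higher in the former by 0.21 over all cells, with -0.08 for all genes. Within classes it ran from -0.12 in mature neutrophil-like to 0.17 in dendritic cell-like cells (-0.01 for all genes there). The hypoxia-induced median over all cells was -0.20, with 4 of 12 genes higher in the cells with Y-linked RNA. Wild type and the homozygote had only 74 and 142 cells with only Y-linked RNA. Their glycolysis medians were -0.08 and -0.11, with -0.17 and -0.05 for all genes. In barcodes left out for their mitochondrial share the homozygous library was again below wild type. As CPM of non-mitochondrial UMIs, glycolysis RNA there stood at 3324 in wild type, 3170 in the heterozygote and 2712 in the homozygote.

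Other genes of the same pathways were counted as lists. Of 21 other glycolysis genes 19 had enough UMIs in the homozygous to wild-type pair, 13 lower and 6 higher, median -0.04, none past 1.5-fold. In the heterozygous to wild-type pair 3 of 20 were past 1.5-fold higher and 3 lower, a share close to the 29.2% of all genes. Adpgk, an ADP-dependent glucokinase, stood at 62.7, 185 and 64.5 CPM (heterozygous log2 1.56), the pyruvate carrier subunit Mpc2 at 178, 278 and 154 (0.65) and Galm, which interconverts glucose anomers, at 4.21, 6.60 and 4.08 (0.65). Ldhb, the lactate dehydrogenase B subunit, stood at 25.3, 15.7 and 21.3 CPM (-0.68) and the lactate carrier Slc16a1 at 17.6, 11.3 and 16.4 (-0.64). The 7 pentose phosphate genes had medians of -0.02 (homozygote) and 0.12 (heterozygote) against wild type, none past 1.5-fold. Of the other hypoxia genes 16 of 26 were lower and 10 higher in the homozygote, median -0.08, with 1 past 1.5-fold higher and 2 lower. In the heterozygote 1 of 25 was past 1.5-fold higher and 5 lower, median -0.11. All genes tested had medians of 0.06 (homozygote) and -0.14 (heterozygote) against wild type, with 21.1% and 29.2% past 1.5-fold. The gene past the fold higher in the homozygote was the sparse Hif3a, at 1.21, 0.892 and 1.89 CPM (log2 0.65, 0.19 to 1.10). The sparse Ak4, an adenylate kinase, had the lowest ratios, at 0.715, 0.247 and 0.152 CPM (homozygous log2 -2.23, -3.62 to -1.08). Mif, a cytokine, stood at 205, 84.7 and 143 CPM, below wild type in both knockout libraries (heterozygous log2 -1.27, homozygous -0.51).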

How the data were processed

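Droplet 3' libraries (Chromium v3) from 3 genotypes were used as deposited. The authors deposited raw UMI counts for each gene in each cell barcode, made with Cell Ranger 8.0.1 per the file headers. Cell Ranger, STAR and mm10 are named in the submitters' processing notes. The annotation, and whether intronic reads were counted, are not given in the sources used here, and 3' tags do not allow levels to be compared between genes, so isoenzyme shares are read only for their change between classes or libraries. Cells with at least 500 UMIs, 200 genes and a mitochondrial share under 10% were kept. Aldoa occurs under 2 identifiers, of which the one with more UMIs was used. Cells were gated by the highest of 5 z-scored marker lists (margin 0.5), with rare types and dendritic cells taken first by at least 4 detected markers. Between 23.0% and 27.5% of scored cells lay within 0.25 of the margin. Cells with a G2/M score of at least 0.4 or an S score of at least 0.5 were called dividing. These thresholds were set after the scores were seen. UMIs were summed per library and class. Levels have exact Poisson intervals and ratios exact conditional intervals, both 95%. A gene was tested with at least 20 UMIs in the 2 libraries and was past the fold at 1.5. No p-value was computed. Doublets (Scrublet) were kept in the results and removed in an alternative. Ratio code was tested on simulated data. Python 3.11.15, scipy 1.17.1, pandas 2.3.3 and scanpy 1.11.5 were used. The members and all gene lists were chosen with earlier results of these data known. Members described in full were the 8 with the widest smallest span over classes and those past 1.5-fold between libraries with an interval excluding 0. Of other pathway lists at most 5 genes with the largest ratios and at least 50 UMIs were named. Ero1l was not matched by symbol and has no value here.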

Additional observations from a re-analysis of the deposited data

How the results depend on the processing

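No paired analysis was possible because each genotype has 1 library. The list medians and single-gene ratios over all kept cells were recomputed under 15 alternatives, 3 of which (at least 3000 UMIs per cell, Xist-only cells, and Xist-only cells with equal class weights) were chosen after seeing the data. The homozygous to wild-type glycolysis median (-0.13) stayed below 0 in all of them: -0.17 with all deposited barcodes, -0.17 with a mitochondrial share under 25%, -0.19 centred on the median of all genes and -0.18 with equal weight per cell. The hypoxia-induced median of that pair lay between -0.22 and -0.09. The heterozygous to wild-type glycolysis median (0.08) was 0.22 when centred and reversed to -0.13 with classes weighted equally, -0.06 in Xist-only cells and -0.13 in Xist-only cells with equal class weights. Its hypoxia-induced median (-0.20) was -0.06 centred, -0.11 with cells thinned to 1000 UMIs and -0.07 with equal class weights, and reversed to 0.02 in Xist-only cells and 0.05 in those cells with equal class weights. The homozygous to heterozygous glycolysis median (-0.06) was -0.14 with all barcodes, -0.12 with a mitochondrial share under 25%, -0.28 centred, -0.23 with equal weight per cell, -0.26 thinned and -0.15 in non-dividing cells. The hypoxia-induced median of that pair (-0.10) ran from -0.32 (centred) to 0.00, below 0 in 15 of the 16 settings, the main one included. Apart from the mix of classes that equal weights remove by construction, the cause was not tested. Pfkfb4 in the heterozygote reversed to -0.13 in Xist-only cells with equal class weights. The other 14 single-gene ratios kept their sign in every alternative. The number of members with the same highest class (14) ran from 12 to 16 over 3 alternatives. Counts over classes, isoenzyme shares, class pairs and dividing cells were not recomputed. Doublet removal took out 423, 231 and 280 cells. The automatic caller marked 0.125% and 0.162% of wild-type and homozygous cells and was replaced there by removal of the top-scoring cells. Depth limits Adm, and members in dendritic cell-like and mature neutrophil-like cells, where wild type and homozygote had at most 162 cells.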
